A study of Homo sapiens with 24 samples.

Results

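FOXO1, FOXO3 and FOXO4, forkhead transcription factors, and 7 genes known as their targets or as parts of the starvation response (IRS2, INSR, TXNIP, CCNG2, SESN3, KLHL24 and DEPP1) were followed through a time course of MYC-ER activation. The 10 genes were found by their Ensembl identifiers among the 60668 rows of the count table. All 10 had enough counts to be among the 22158 genes tested, the scarcest being DEPP1 with 156 to 203 counts per library in MYC-ER cells at 0 h.

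The libraries came from MCF-10A, an immortalised, non-tumorigenic line of human breast epithelium, and from its derivative with MYC-ER, in which the MYC transcription factor is joined to an oestrogen receptor's hormone-binding domain and stays inactive until 4-hydroxytamoxifen (4-OHT) binds it. Both lines grew as 3D cultures on Matrigel, a basement membrane gel, and received 1 μM 4-OHT for 0, 8, 24 or 48 h, with every culture harvested together on day 5 after a medium change on day 3. For the shorter times 4-OHT was thus added to older cultures, longer after the medium change. Hours of 4-OHT cannot be told apart from the age of culture and medium at its addition. A fall, rise or return below is a difference between separate cultures harvested at the same age. Parental cells without the fusion got the same 4-OHT schedule, so each time point has a matched drug control, and the 8 groups hold 3 libraries each. The labels do not say whether the MYC-ER line is a clone or a pool, from which species the receptor part comes, or whether the replicates were independent cultures beyond triplicate wells, so p-values measure only the spread between these libraries.

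Library totals ran from 136860029 to 182438505 counts, and replicates of a group always differed by more than counting error (chi-square per degree of freedom 8.45 to 261 over 24 pairs). MYC, read as a check, stood at 387 ± 8.02 CPM (SD, n = 3, CPM being counts per 1000000 of the scaled library total) before 4-OHT in MYC-ER cells. It was 795 ± 1.77 after 8 h, 321 ± 8.84 after 24 h and 248 ± 4.72 after 48 h. Parental libraries held 532 ± 68.7, 463 ± 17.5, 506 ± 14.1 and 525 ± 35.5 CPM, so MYC RNA was higher in the MYC-ER line at 8 h only (0.78, adjusted p 3.17e-09) and lower at 0 h (-0.46, adjusted p 3.35e-06), 24 h (-0.66, adjusted p 4e-08) and 48 h (-1.08, adjusted p 1.23e-11, edgeR). The counts do not separate the fusion from endogenous MYC. All 12 epithelial markers examined were above 1 CPM in every group, although EPCAM was at only 1.93 ± 0.219 CPM in MYC-ER cells at 0 h. Their level was not constant: the sum was 18191 to 18766 CPM in untreated MYC-ER libraries and 33353 to 40026 in untreated parental ones, with 8 markers lower and 3 higher in MYC-ER (median log2 difference -1.31), against 32.7% and 31.6% of all genes tested. After 8 h of 4-OHT 8 were higher and 3 lower in MYC-ER cells (median 1.2), against 32.2% and 35.4% of all genes. The part of this shift in the results below was not tested. Of 16 markers of other cell types, between 7 and 10 per group were at 0 in every library, and the leukocyte gene PTPRC was at 0 in all groups but parental 8 h, where its mean was 0.00412 CPM. The sum of those 16 markers was 214 to 223 CPM in MYC-ER cells at 0 h and 55.2 to 107 CPM elsewhere, nearly all of it from the collagen gene COL1A1 (215 ± 4.96 CPM in MYC-ER cells at 0 h). Mitochondrial transcripts took 9.24 to 9.71% of the counts in MYC-ER cells at 0 h and 5.51 to 7.78% in the others, except for parental 0 h replicate 1 at 3.86%. Parental 0 h replicate 2 stood above both other replicates of its group in 7 of the 10 genes, so results that rest on the parental 0 h group are also given without it where that changes them.

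FOXO proteins are held in the cytoplasm when insulin or growth factors activate PI3K and AKT, because AKT phosphorylates them and 14-3-3 proteins bind the phosphorylated form. When that signal falls they enter the nucleus and switch on genes for cell cycle arrest, catabolism and stress defence, and also genes such as INSR and IRS2 that restore sensitivity to insulin. The RNA values below are transcript levels, and neither phosphorylation nor the location of FOXO proteins was measured. In bulk RNA, fewer cells expressing a gene and less RNA per cell cannot be told apart.

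The FOXO consensus site was looked for in promoter windows from RefSeq (GRCh38.p14), running from 250 bases before to 50 bases after each annotated start. The 10 genes matched 14 windows, of which FOXO3 had 4 and TXNIP 2. GTAAACA, searched on both strands, was found in 3 of the 14 windows, against 3.42% of all 35116 windows, and those 3 belong to TXNIP, DEPP1 and FOXO4. The 4 stretches shown here are the 3 with GTAAACA and the only one with the E-box CACGTG bound by MYC and MAX, that of CCNG2, a motif found in 7.26% of all windows. Capitals mark the motif, and each stretch is written 5′ to 3′ on the strand of its gene. Distances are from RefSeq starts, which can differ from the GENCODE 29 gene coordinates given below. The FOXO4 window ends at 71095900, before the GENCODE 29 start at 71096197. The CCNG2 motif lies after the GENCODE 29 start at 77157151.
TXNIP, chr1:145996580-145996829, minus strand, GTAAACA beginning 124 bases before the start: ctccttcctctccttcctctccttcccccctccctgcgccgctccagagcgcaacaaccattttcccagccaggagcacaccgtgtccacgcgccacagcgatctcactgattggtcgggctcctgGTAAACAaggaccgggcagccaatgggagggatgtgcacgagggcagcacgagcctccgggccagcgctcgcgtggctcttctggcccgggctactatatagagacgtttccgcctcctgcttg
DEPP1, chr10:44978810-44979059, minus strand, GTAAACA beginning 180 bases before the start: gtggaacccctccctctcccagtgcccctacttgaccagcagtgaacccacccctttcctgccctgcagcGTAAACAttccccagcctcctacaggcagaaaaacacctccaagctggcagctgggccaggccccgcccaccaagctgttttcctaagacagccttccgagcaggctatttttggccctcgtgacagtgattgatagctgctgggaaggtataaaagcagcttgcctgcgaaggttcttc
FOXO4, chrX:71095601-71095880, plus strand, GTAAACA beginning 23 bases after the start: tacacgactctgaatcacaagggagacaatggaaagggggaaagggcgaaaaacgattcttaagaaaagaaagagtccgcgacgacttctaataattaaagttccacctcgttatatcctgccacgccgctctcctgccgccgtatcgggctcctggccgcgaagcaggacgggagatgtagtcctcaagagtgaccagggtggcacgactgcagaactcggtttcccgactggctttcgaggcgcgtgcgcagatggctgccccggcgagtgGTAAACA
CCNG2, chr4:77156957-77157206, plus strand, CACGTG beginning 30 bases before the start: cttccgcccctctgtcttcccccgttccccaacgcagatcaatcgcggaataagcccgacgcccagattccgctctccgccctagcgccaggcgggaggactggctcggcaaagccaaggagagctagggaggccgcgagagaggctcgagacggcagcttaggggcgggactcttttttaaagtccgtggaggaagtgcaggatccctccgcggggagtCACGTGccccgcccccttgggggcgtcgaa
TXNIP and FOXO4, which share the motif with DEPP1, had RNA changes in MYC-ER cells opposite to those of DEPP1, as given below. The shorter core AAACA, which also lies inside GTAAACA, was present in 11 of the 14 windows and in 44.4% of all windows. These matches are letters in a window, and no binding was measured here.

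At 8 h of 4-OHT, 9 of the 10 genes were lower in MYC-ER cells than at 0 h and DEPP1 was higher. All 10 passed the test (edgeR's quasi-likelihood F test with Benjamini-Hochberg adjustment at 0.05), where 67.6% of all genes tested did. The 9 lower calls compare with 35.4% of all genes called lower, and the 1 higher call with 32.2% called higher. The median log2 change of the 10 genes was -1.58, and that of all genes tested was -0.10. Replicate values of the 0 h and 8 h groups did not overlap for any of the 10, as was the case for 73.5% of all genes tested. By 24 h, 7 were lower and 2 higher (9 called, against 61.6% of all genes, 31.2% being lower and 30.4% higher), and by 48 h 6 were lower and 1 higher (7 called, against 44.1%, 20.7% being lower and 23.4% higher). Between 8 h and 24 h 5 genes were called, against 55.5% of all genes (28.4% higher, 27.1% lower): FOXO4, CCNG2, SESN3 and KLHL24 higher and DEPP1 lower. Between 24 h and 48 h 9 were called, against 53.7% (28.2% higher, 25.5% lower), 7 of them higher.

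**Figure D1:**
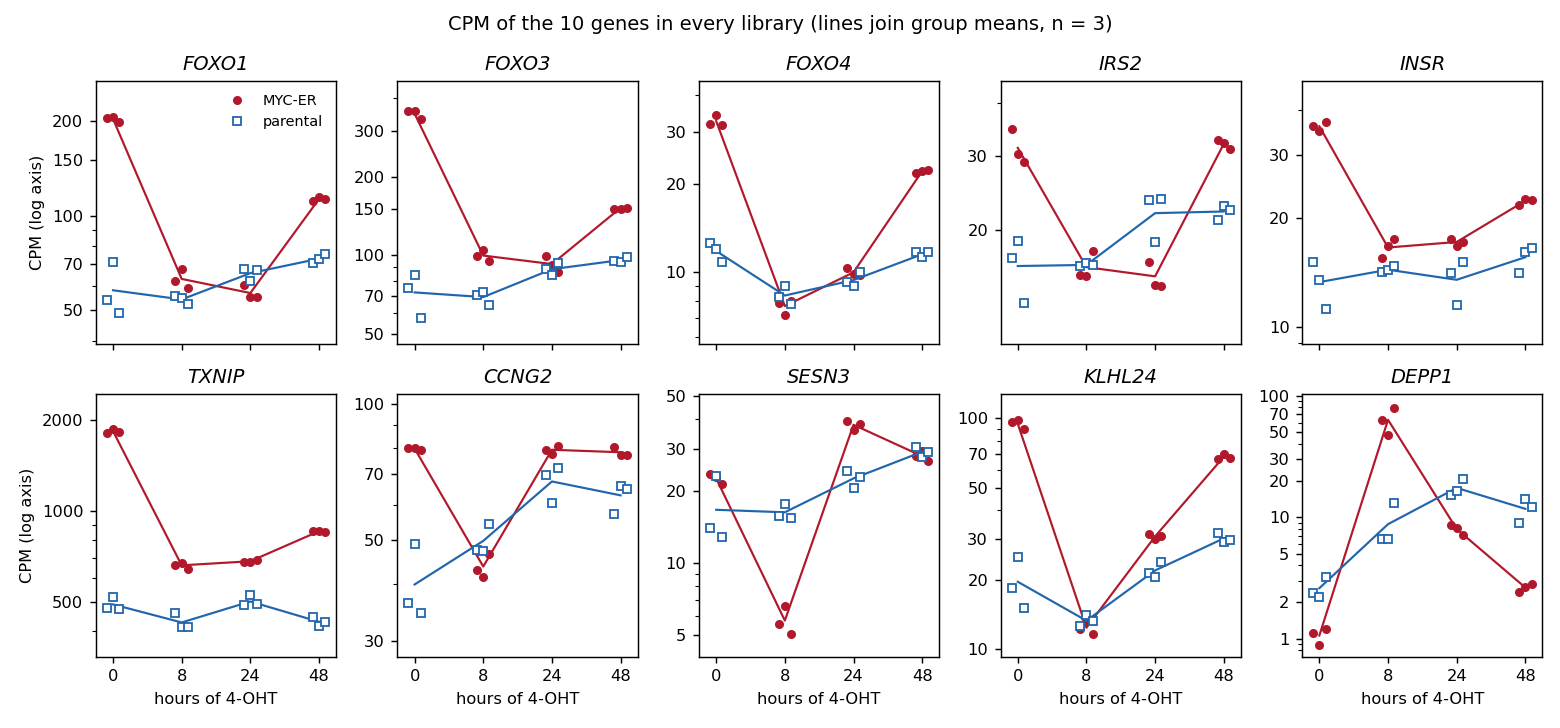
CPM of each gene on a log axis against hours of 4-OHT, 1 point per library, in MYC-ER (filled circles) and parental cells (open squares), with lines through the means of 3 libraries. The 3 MYC-ER libraries at 0 h lie above every parental library for FOXO1, FOXO3, FOXO4, IRS2, INSR, TXNIP, CCNG2 and KLHL24, and DEPP1 peaks at 47.5 to 79.3 CPM in the MYC-ER libraries at 8 h.

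The 3 transcription factors fell together and regained part of their level by 48 h. FOXO1 (ENSG00000150907.9, chr13:40469953-40666597, minus strand, GRCh38, GENCODE 29) acts in insulin-dependent control of metabolism. In MYC-ER replicates 1, 2 and 3 it measured 204, 206 and 198 CPM at 0 h, 62.2, 67.7 and 59.1 at 8 h, 60.1, 55.2 and 55.1 at 24 h, and 111, 115 and 113 at 48 h. Parental libraries held 53.8, 71.1 and 49.0 CPM at 0 h, 55.5, 54.9 and 52.3 at 8 h, 67.6, 62.2 and 67.2 at 24 h, and 70.8, 72.9 and 75.4 at 48 h. MYC-ER libraries at 0 h and 48 h thus stood above all parental ones, while those at 8 h and 24 h lay within it. The log2 change from 0 h in MYC-ER cells at 8, 24 and 48 h was -1.69, -1.83 and -0.84 (SE 0.09 each, adjusted p 2.65e-13, 8.31e-14 and 6.62e-08, edgeR). From 24 h to 48 h FOXO1 rose by 0.99 on the log2 scale (SE 0.09, adjusted p 3.23e-09). Ordered by mean, 4 of the 7 neighbouring pairs among the 8 groups overlapped, all of them below MYC-ER at 48 h. The lincRNA LINC00598 shares 269 exon bases with FOXO1 on the same strand, at 0.447 to 7.75 CPM per library, and reads in that stretch cannot be assigned to either with certainty.

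FOXO3 (ENSG00000118689.15, chr6:108559835-108684774, plus strand), linked to stress resistance, autophagy and cell death, was the most abundant of the 3 per length of transcript. MYC-ER libraries held 358, 357 and 333 CPM at 0 h, 99.2, 105 and 95.1 at 8 h, 99.7, 91.7 and 86.5 at 24 h, and 151, 151 and 152 at 48 h. In parental cells the values were 74.9, 84.1 and 57.3 CPM at 0 h, 70.5, 72.3 and 64.8 at 8 h, 88.3, 83.8 and 93.3 at 24 h, and 94.9, 94.6 and 98.3 at 48 h. The fall left 28.6% of the 0 h level at 8 h, 26.5% at 24 h and 43.4% at 48 h, so FOXO3 regained less of its starting level than FOXO1 (55.8%) or FOXO4 (67.7%). Its log2 changes were -1.81 (SE 0.09, adjusted p 1.35e-13), -1.92 (SE 0.09, adjusted p 6.63e-14) and -1.21 (SE 0.09, adjusted p 4.07e-10, all edgeR). FOXO3 is reported as uncertain because its near-identical copy FOXO3B could share its reads. FOXO3B was listed at 35.1 ± 3.12 CPM in MYC-ER cells at 0 h and 12.5 ± 0.732 at 8 h, and at 7.44 ± 2.07 in parental cells at 0 h. Of the 7 neighbouring pairs of groups in the order of means, 5 overlapped, all below MYC-ER at 48 h.

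FOXO4 (ENSG00000184481.17, chrX:71096197-71103535, plus strand), which shares the forkhead domain and the AKT-controlled export of the other two, was the least abundant. It stood at 31.8, 34.3 and 31.6 CPM in MYC-ER cells at 0 h, 7.88, 7.14 and 7.98 at 8 h, 10.3, 9.86 and 9.79 at 24 h, and 21.8, 22.1 and 22.3 at 48 h. Parental cells had 12.6, 11.96 and 10.8 CPM at 0 h, 8.24, 8.99 and 7.77 at 8 h, 9.24, 8.97 and 10.002 at 24 h, and 11.7, 11.3 and 11.7 at 48 h. Here the parental line moved in the same direction at 8 h, with no overlap between its 0 h and 8 h libraries. The MYC-ER log2 change at 8 h was -2.09 (SE 0.07, adjusted p 1.32e-16) and the parental one -0.50 (SE 0.07, adjusted p 2.28e-05), and the 2 differed by -1.59 (SE 0.10, adjusted p 8.19e-12, edgeR, interaction). FOXO4 had begun to return by 24 h, with a log2 change from 8 h of 0.38 (SE 0.07, adjusted p 6.59e-05), whereas FOXO1 and FOXO3 were at -0.15 (adjusted p 0.159) and -0.11 (adjusted p 0.329). Per kilobase of exon, the 0 h MYC-ER levels were 45.3 ± 1.79 CPM for FOXO3, 32.5 ± 0.682 for FOXO1 and 9.45 ± 0.437 for FOXO4 (SD, n = 3). In parental cells at 0 h, FOXO3 at 9.34 ± 1.76 and FOXO1 at 9.30 ± 1.87 CPM per kilobase were indistinguishable, and FOXO4 was at 3.42 ± 0.271.

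INSR and IRS2, the insulin receptor and an adaptor that carries its signal to PI3K, both fell by about the same amount and then parted. INSR (ENSG00000171105.14, chr19:7112255-7294034, minus strand) read 36.1, 35.0 and 37.1 CPM in MYC-ER cells at 0 h, 15.5, 16.8 and 17.5 at 8 h, 17.5, 16.8 and 17.2 at 24 h, and 21.8, 22.7 and 22.5 at 48 h. Its parental libraries held 15.1, 13.5 and 11.2 CPM at 0 h, 14.2, 14.4 and 14.7 at 8 h, 14.1, 11.5 and 15.1 at 24 h, and 14.1, 16.1 and 16.6 at 48 h. With the settings used throughout, parental INSR passed at no time point, its 48 h change being 0.23 (adjusted p 0.0598, edgeR). The MYC-ER log2 change was -1.12 (SE 0.10, adjusted p 7.9e-10), -1.07 (SE 0.10, adjusted p 1.93e-09) and -0.69 (SE 0.09, adjusted p 3.12e-06, edgeR) at 8, 24 and 48 h. The parental 48 h change of INSR passed in 5 of 16 alternatives. Without parental 0 h replicate 1 or parental 48 h replicate 1 it was 0.33 (adjusted p 0.0119) and 0.30 (adjusted p 0.0285). With no library left out, it passed when scaled by library size alone (0.28, adjusted p 0.0241). A stricter count filter (0.23, adjusted p 0.0422) and DESeq2 (0.23, adjusted p 0.0477) gave the call as well. From 8 h to 24 h INSR in MYC-ER cells changed by 0.05 (adjusted p 0.701, edgeR), and passed with library size alone (0.25, adjusted p 0.0304). In the order of group means, 5 of the 7 neighbouring pairs overlapped, with the MYC-ER 0 h and 48 h groups apart.

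IRS2 (ENSG00000185950.9, chr13:109752698-109786568, minus strand) measured 34.7, 30.2 and 28.9 CPM in MYC-ER cells at 0 h, 15.6, 15.5 and 17.8 at 8 h, 16.8, 14.8 and 14.7 at 24 h, and 32.7, 32.1 and 31.1 at 48 h. Parental values were 17.1, 18.8 and 13.4 CPM at 0 h, 16.4, 16.7 and 16.5 at 8 h, 23.5, 18.7 and 23.7 at 24 h, and 21.1, 22.8 and 22.3 at 48 h. The MYC-ER groups at 0 h and 48 h overlapped each other and lay above the rest. Its log2 change at 8, 24 and 48 h was -0.94, -1.01 and 0.03 (SE 0.10 each, adjusted p 5.73e-08, 2.13e-08 and 0.836, edgeR). In parental cells IRS2 was higher by 0.42 and 0.43 at 24 and 48 h (SE 0.10 each, adjusted p 0.00249 and 0.0023), calls that were lost when only the groups compared were fitted (adjusted p 0.0705 and 0.0553). At 24 h the IRS2 level of MYC-ER cells was below the parental one, at -0.50 (SE 0.10, adjusted p 0.000348).

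IRS1, the other widely expressed adaptor of the insulin receptor, moved against IRS2. It measured 2.56, 2.22 and 2.55 CPM in MYC-ER cells at 0 h and 20.3, 23.3 and 22.0 at 8 h, then 3.26, 3.12 and 2.71 at 24 h and 4.32 to 4.80 at 48 h. The 8 h rise was 3.16 on the log2 scale (SE 0.13, adjusted p 3.92e-15, edgeR), while parental IRS1 stayed between 11.03 and 20.4 CPM in all 12 libraries. At 0 h the IRS1 level of MYC-ER cells was below the parental one, at -2.45 (SE 0.13, adjusted p 2.98e-13), where IRS2 was higher by 0.93 (SE 0.10, adjusted p 8.05e-08).

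TXNIP, KLHL24 and CCNG2 were the effectors that fell and returned to different extents. TXNIP (ENSG00000265972.6, chr1:145992435-145996600, minus strand), an arrestin-like protein that binds thioredoxin and limits glucose uptake, was the most abundant of the 10 genes. Its MYC-ER libraries held 1812, 1872 and 1825 CPM at 0 h, 665, 674 and 643 at 8 h, 677, 680 and 688 at 24 h, and 859, 859 and 854 at 48 h. Parental libraries held 479, 519 and 475 CPM at 0 h, 459.6, 414 and 412 at 8 h, 488, 526 and 491 at 24 h, and 446, 416 and 428 at 48 h. Every MYC-ER library at any time stood above every parental library. The MYC-ER log2 changes were -1.47 (SE 0.05, adjusted p 1.95e-16), -1.43 (SE 0.05, adjusted p 3.34e-16) and -1.10 (SE 0.05, adjusted p 1.03e-13, edgeR), so TXNIP regained little between 8 h and 24 h (0.05, adjusted p 0.466) and was still at 46.7% of its 0 h level at 48 h. The change from 8 h to 24 h depended on the scaling. It passed with library size alone (0.25, adjusted p 0.00104) and with upper quartile scaling (0.15, adjusted p 0.0148). In parental cells TXNIP was at -0.20 and -0.19 after 8 and 48 h (SE 0.05 each, adjusted p 0.00525 and 0.00412), calls that did not hold with only the groups compared (adjusted p 0.15 and 0.198). Only 2 of the 7 neighbouring pairs of groups overlapped, both within the parental line.

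KLHL24 (ENSG00000114796.16, chr3:183635568-183684477, plus strand), a substrate adaptor of CUL3 ubiquitin ligase known for controlling keratin 14 turnover, fell furthest of the 9. MYC-ER values were 96.6, 97.9 and 89.7 CPM at 0 h, 12.2, 13.3 and 11.6 at 8 h, 31.4, 29.98 and 31.03 at 24 h, and 66.7, 69.9 and 67.6 at 48 h. In the parental line they were 18.5, 25.1 and 15.1 CPM at 0 h, 12.6, 14.01 and 13.3 at 8 h, 21.4, 20.5 and 23.9 at 24 h, and 31.9, 29.002 and 29.7 at 48 h. Both lines were at their lowest at 8 h, where their libraries overlapped. The log2 change at 8 h was -2.94 (SE 0.12, adjusted p 2.52e-15) in MYC-ER and -0.56 (SE 0.11, adjusted p 0.000858) in parental cells, the latter with an adjusted p of 0.082 when only the groups compared were fitted. MYC-ER KLHL24 then rose in both intervals, by 1.32 (SE 0.11, adjusted p 1.89e-09) from 8 h to 24 h and by 1.14 (SE 0.11, adjusted p 1.3e-08, edgeR) from 24 h to 48 h. Its parental 24 h change, 0.17 (adjusted p 0.254), was 0.39 (adjusted p 0.00027) without parental 0 h replicate 2 and -0.22 (adjusted p 0.0119) with the GC trend of each library removed, so no direction is given for it.

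CCNG2 (ENSG00000138764.15, chr4:77157151-77433388, plus strand) encodes an unconventional cyclin associated with cell cycle arrest. It held 80.1, 80.04 and 79.2 CPM in MYC-ER cells at 0 h, 43.1, 41.6 and 46.7 at 8 h, 79.4, 77.5 and 80.97 at 24 h, and 80.3, 77.4 and 77.3 at 48 h. The parental series ran 36.3, 49.05 and 34.6 CPM at 0 h, 47.7, 47.5 and 54.4 at 8 h, 69.7, 60.5 and 72.3 at 24 h, and 57.3, 66.1 and 65.1 at 48 h. CCNG2 was thus back at its 0 h level by 24 h in MYC-ER cells, whose 0, 24 and 48 h groups overlapped, while the parental line climbed towards it. The MYC-ER change at 8 h was -0.86 (SE 0.10, adjusted p 6.1e-08), and at 24 h it was -0.01 (SE 0.10, adjusted p 0.945, edgeR). In the parental line CCNG2 rose by 0.76 and 0.65 by 24 and 48 h (SE 0.10 each, adjusted p 5.22e-06 and 3.12e-05). The parental 8 h value of 0.32 (adjusted p 0.0153) was lost without parental 0 h replicate 1 (0.25, adjusted p 0.0943), parental 0 h replicate 3 (0.24, adjusted p 0.0911) or parental 8 h replicate 3 (0.25, adjusted p 0.0886). Removing each library's GC trend gave 0.14 (adjusted p 0.207).

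SESN3 stood above its starting level at 24 h. SESN3 (ENSG00000149212.12, chr11:95165513-95232541, minus strand) encodes a sestrin, a stress-induced protein that restrains mTORC1. Its MYC-ER libraries measured 23.6, 22.8 and 21.5 CPM at 0 h, 5.57, 6.60 and 5.06 at 8 h, 39.2, 36.2 and 38.2 at 24 h, and 28.0, 29.4 and 26.6 at 48 h. Parental libraries measured 14.0, 23.2 and 12.8 CPM at 0 h, 15.8, 17.7 and 15.5 at 8 h, 24.2, 20.6 and 22.9 at 24 h, and 30.7, 27.7 and 29.2 at 48 h. The MYC-ER groups at 8 h and 24 h were the lowest and the highest of all 8, and neither overlapped another group. SESN3 fell by 1.98 on the log2 scale (SE 0.15, adjusted p 1.38e-10) at 8 h, rose by 2.72 (SE 0.16, adjusted p 1.94e-12) from 8 h to 24 h, and was then above its 0 h level by 0.74 (SE 0.14, adjusted p 0.000122, edgeR). The later fall from 24 h to 48 h was -0.44 (SE 0.14, adjusted p 0.014), and -0.40 (adjusted p 0.0519) without MYC-ER 48 h replicate 3. At 48 h it was at 0.31 from 0 h (SE 0.14, adjusted p 0.0911), a value that passed in 5 alternatives, such as with only the groups compared (0.32, adjusted p 0.000386) or with library size alone (0.47, adjusted p 0.0201). Parental SESN3 rose by 0.81 (SE 0.15, adjusted p 0.000164) by 48 h.

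The parental 0 h libraries of SESN3 were spread from 12.8 to 23.2 CPM, and several SESN3 values rest on them. Its parental 8 h change was -0.03 (adjusted p 0.908) with all libraries and 0.28 (adjusted p 0.0168) without parental 0 h replicate 2, and its parental 24 h change of 0.44 (adjusted p 0.0185) was 0.07 (adjusted p 0.584) with the GC trend removed. That 24 h call was also lost without parental 0 h replicate 1 (0.32, adjusted p 0.114), parental 0 h replicate 3 (0.29, adjusted p 0.12) or parental 24 h replicate 1 (0.38, adjusted p 0.0724). The difference between the lines at 0 h, 0.44 (SE 0.14, adjusted p 0.0115), was lost without parental 0 h replicate 1 (0.33, adjusted p 0.0777) or replicate 3 (0.30, adjusted p 0.0754). Removing the GC trend gave 0.18 (adjusted p 0.0862). The other sestrins differed from SESN3: SESN1 fell by 2.21 on the log2 scale at 8 h (SE 0.07, adjusted p 1.42e-17), from 115 ± 3.88 to 24.8 ± 1.09 CPM, and was at 67.8 ± 1.59 at 24 h without passing its 0 h level. SESN2 measured 44.1 ± 0.488 CPM in MYC-ER cells at 0 h and 29.5 ± 1.16 at 8 h, close to the parental 45.4 ± 4.20 and 30.9 ± 1.16.

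DEPP1 went the opposite way. DEPP1 (ENSG00000165507.9, chr10:44970981-44978810, minus strand), named for its induction by progesterone in decidual cells and known as a FOXO target linked to autophagy, was the scarcest of the 10 genes at 0 h. It measured 1.11, 0.885 and 1.19 CPM in MYC-ER cells at 0 h, 63.2, 47.5 and 79.3 at 8 h, 8.64, 8.15 and 7.16 at 24 h, and 2.41, 2.66 and 2.83 at 48 h. Parental libraries held 2.38, 2.20 and 3.21 CPM at 0 h, 6.60, 6.63 and 13.01 at 8 h, 15.2, 16.3 and 20.6 at 24 h, and 9.0002, 14.2 and 12.02 at 48 h. The mean at 8 h in MYC-ER cells was 59.7 times that at 0 h, a single peak that had nearly subsided by 48 h, while the parental line reached its highest value at 24 h. On the log2 scale the MYC-ER rises were 5.90 (SE 0.29, adjusted p 5.13e-14), 2.91 (SE 0.26, adjusted p 1.93e-09) and 1.31 (SE 0.26, adjusted p 0.000249), and the parental rises 1.75 (SE 0.24, adjusted p 2.28e-05), 2.74 (SE 0.25, adjusted p 1.03e-07) and 2.18 (SE 0.24, adjusted p 3.02e-06, edgeR). The 2 lines differed at 8 h by 4.15 (SE 0.35, adjusted p 1.39e-09, interaction), whereas at 24 h the difference was 0.17 (SE 0.34, adjusted p 0.708) and at 48 h -0.87 (SE 0.35, adjusted p 0.0485). That last call was lost in 12 of 22 alternatives, with adjusted p up to 0.125. Of the 12 fits that left out a library of these groups, 9 lost it. It held without MYC-ER 0 h replicate 2, parental 0 h replicate 3 or parental 48 h replicate 1. RASSF4 shares 695 exon bases with DEPP1 on the opposite strand, and whether the counting used strand is not given. RASSF4 itself went from 5.27 ± 0.319 to 1.83 ± 0.0721 CPM over the interval in which DEPP1 went from 1.06 ± 0.157 to 63.3 ± 15.9. Per kilobase of exon, DEPP1 at 8 h, 21.3 ± 5.33 CPM, was above FOXO3 at that time, 12.9 ± 0.655.

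**Figure D2:**
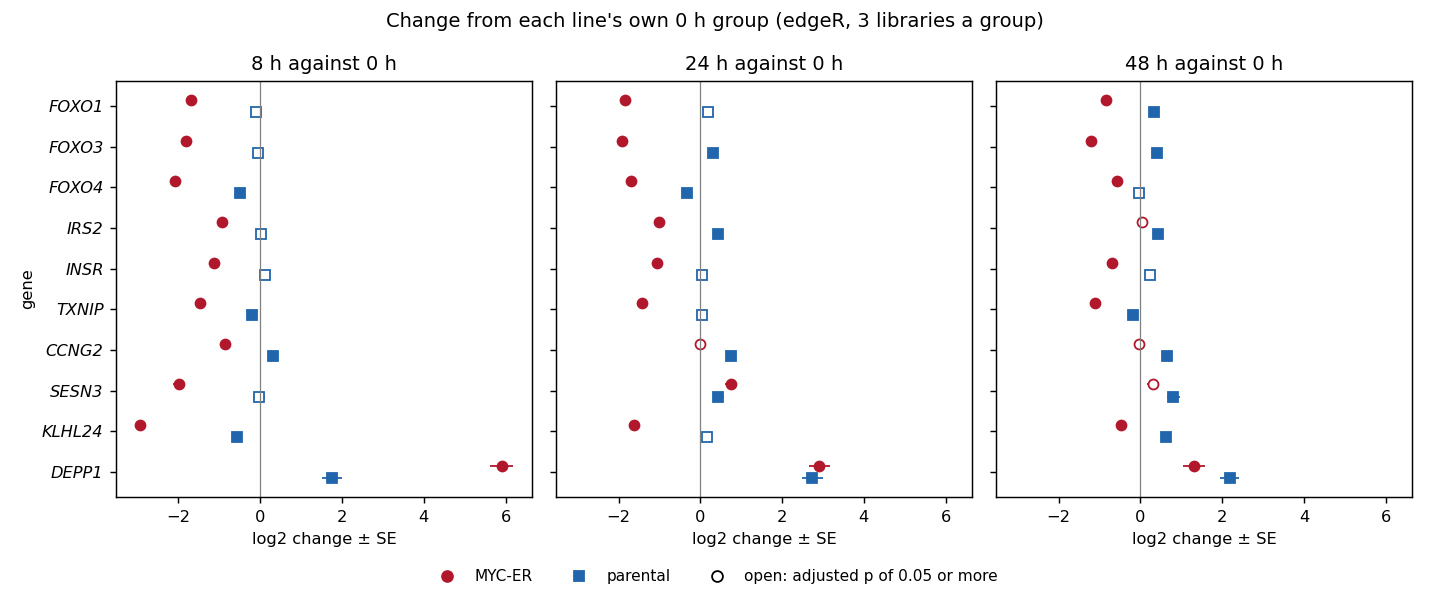
Log2 change from each line's own 0 h group with its standard error (edgeR), for MYC-ER (red circles) and parental cells (blue squares) at 8, 24 and 48 h, with filled symbols for adjusted p under 0.05. At 8 h the MYC-ER values of 9 genes lie between -2.94 and -0.86 and DEPP1 at 5.90, while the parental values of the 9 lie between -0.56 and 0.32.

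In the parental line 5 of the 10 genes were called at 8 h (FOXO4, TXNIP and KLHL24 lower, CCNG2 and DEPP1 higher), against 31.0% of all genes tested (16.0% lower, 15.0% higher). At 24 h 6 were called, 5 higher and 1 lower (FOXO4), against 42.9% (21.2% and 21.7%). The FOXO4 value, -0.33 (SE 0.07, adjusted p 0.000585), was -0.12 (adjusted p 0.219) once the GC trend was removed. At 48 h 8 were called, 7 higher and 1 lower (TXNIP), against 40.5% (20.4% and 20.1%). At 48 h the parental changes were mostly upward: FOXO1 was higher by 0.33 (SE 0.09, adjusted p 0.00415), FOXO3 by 0.41 (SE 0.09, adjusted p 0.000927) and KLHL24 by 0.63 (SE 0.11, adjusted p 0.000151, edgeR). When only the groups compared were fitted, the parental counts were 2 (FOXO4 and DEPP1), 2 (CCNG2 and DEPP1) and 4 (CCNG2, SESN3, KLHL24 and DEPP1) of the 10 genes. Those fits called 1452 of 19596, 4923 of 19581 and 3274 of 19680 genes tested at 8, 24 and 48 h. Without parental 0 h replicate 2, FOXO1 passed at 24 h as well (0.35, adjusted p 2.29e-05). FOXO3 at 8 h passed without parental 0 h replicate 3 (-0.19, adjusted p 0.0434), and its 24 h call, 0.30 (adjusted p 0.0108), was lost without parental 24 h replicate 3 (0.26, adjusted p 0.0526).

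The test of the difference in response between the lines passed for all 10 genes at 8 h, with 9 below 0 and DEPP1 above, against 55.2% of all genes tested (27.8% below, 27.3% above). At 24 h it passed for 8, all below 0 (54.5% of all genes, 26.8% below and 27.7% above), with SESN3 at 0.31 (SE 0.20, adjusted p 0.216) and DEPP1 outside, and at 48 h for 9, all below 0 (45.0%, 21.4% below and 23.6% above), with SESN3 at -0.50 (SE 0.20, adjusted p 0.0516) outside. These comparisons share the MYC-ER 0 h and parental 0 h libraries with one another. The 24 h value of SESN3 passed with the GC trend removed (0.58, adjusted p 0.000614). It passed too when parental 0 h replicate 3 was left out (0.46, adjusted p 0.0465), and leaving out parental 0 h replicate 2 gave -0.01 (adjusted p 0.984). Without that last library the 48 h value of SESN3 was -0.82 (adjusted p 8.09e-06). IRS2 at 48 h, -0.39 (SE 0.15, adjusted p 0.0333), was lost without MYC-ER 0 h replicate 1 (-0.31, adjusted p 0.104) or parental 0 h replicate 3 (-0.29, adjusted p 0.0751). It was also lost without replicate 2 or 3 of MYC-ER or parental 48 h, at -0.40 to -0.37. Library size alone (-0.28, adjusted p 0.147) and upper quartile scaling (-0.31, adjusted p 0.0633) lost the IRS2 call as well. In all it was lost in 10 of 22 alternatives.

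All 10 genes were called between untreated cells of the 2 lines, where 64.3% of all genes tested were called. MYC-ER cells had 9 of them higher (31.6% of all genes were called higher) and DEPP1 lower (32.7%). The SESN3 libraries of the 2 lines overlapped, at 21.5 to 23.6 CPM in MYC-ER and 12.8 to 23.2 in parental cells. Its call was lost in 5 of 16 alternatives. FOXO3 and KLHL24 were each higher by 2.28 (SE 0.09 and 0.12, adjusted p 4.66e-15 and 1.61e-13), TXNIP by 1.90 (SE 0.05, adjusted p 3.67e-18), FOXO1 by 1.81 (SE 0.09, adjusted p 1.22e-13), FOXO4 by 1.47 (SE 0.07, adjusted p 4.67e-14) and INSR by 1.44 (SE 0.10, adjusted p 1.76e-11, edgeR). CCNG2 was higher by 1.00 (SE 0.10, adjusted p 8.29e-09), and DEPP1 was at -1.29 (SE 0.26, adjusted p 0.000153). At 8 h 5 were called (48.6% of all genes, 23.1% higher and 25.5% lower): FOXO1, FOXO3 and TXNIP were higher in MYC-ER cells, SESN3 was lower by -1.51 (SE 0.15, adjusted p 2.93e-08) and DEPP1 was higher by 2.86 (SE 0.24, adjusted p 2.32e-09). The FOXO1 value at 8 h, 0.22 (SE 0.09, adjusted p 0.0473), was lost in 9 of 16 alternatives, among them those without any library of the 2 groups except MYC-ER 8 h replicate 3 (0.16 to 0.25, adjusted p up to 0.193).

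At 24 h 6 of the 10 genes differed between the lines (49.4% of all genes did, 23.5% higher and 25.8% lower), with IRS2 and DEPP1 lower and INSR, TXNIP, SESN3 and KLHL24 higher in MYC-ER cells. FOXO1 was then at -0.21 (SE 0.09, adjusted p 0.0541), FOXO3 at 0.07 (SE 0.09, adjusted p 0.583) and FOXO4 at 0.09 (SE 0.07, adjusted p 0.309), none of them called. FOXO1 passed with only the groups compared (-0.20, adjusted p 0.00533), and when MYC-ER 24 h replicate 1 or parental 24 h replicate 2 was left out (both -0.25, adjusted p 0.0447 and 0.0453). FOXO4 passed with library size alone (0.21, adjusted p 0.0201) and with upper quartile scaling (0.19, adjusted p 0.0189). CCNG2, at 0.23 (SE 0.10, adjusted p 0.0503), passed in 9 of 16 alternatives, among them that without parental 24 h replicate 3 (0.28, adjusted p 0.0386). At 48 h 9 were called (56.7% of all genes, 27.3% higher and 29.4% lower), 8 of them higher in MYC-ER cells. KLHL24 was then higher by 1.17 (SE 0.11, adjusted p 9.41e-09), TXNIP by 0.99 (SE 0.05, adjusted p 4.36e-13), FOXO4 by 0.93 (SE 0.07, adjusted p 1.6e-10) and DEPP1 lower, at -2.16 (SE 0.24, adjusted p 1.23e-07, edgeR). SESN3, at -0.06 (SE 0.14, adjusted p 0.744), was the gene not called.

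**Figure D3:**
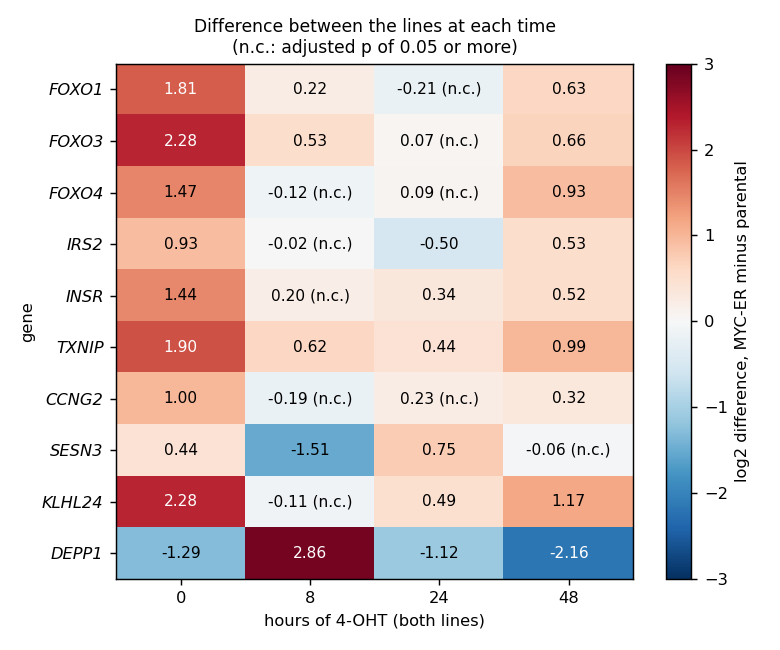
Log2 difference between MYC-ER and parental cells (edgeR, 3 libraries a group) for the 10 genes at 0, 8, 24 and 48 h of 4-OHT, red for higher and blue for lower in MYC-ER, with n.c. for adjusted p of 0.05 or more. The first column is red for 9 genes, from 0.44 for SESN3 to 2.28 for FOXO3 and KLHL24, the middle columns are near 0 for most, and DEPP1 changes sign between 0, 8 and 24 h.

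Proliferation genes also differed between the lines, on another time course than the 10 genes. All 10 proliferation genes examined were below the parental level in MYC-ER cells at 0 h and still at 8 h, with medians of -4.99 and -3.80, while the median of the 10 FOXO-related genes went from 1.46 to 0.09. At 24 h 8 proliferation genes were higher and 0 lower (median 0.37), and at 48 h all 10 were lower (median -1.17). Between the lines, 32.7%, 25.5% and 29.4% of all genes were lower in MYC-ER cells at 0, 8 and 48 h. At 24 h 23.5% of all genes were higher and 25.8% lower. MKI67, the Ki-67 antigen, stood at 1.74 ± 0.0968 CPM in untreated MYC-ER cells and 209 ± 30.6 in untreated parental cells. With 4-OHT its MYC-ER level was 6.13 ± 0.248 after 8 h, 371 ± 8.71 after 24 h and 97.6 ± 5.02 after 48 h. Relative to 0 h in MYC-ER cells, 7 of the 10 were higher and 2 lower (CDK1 and CCNA2) at 8 h, and all 10 were higher at 24 h and at 48 h, with medians of 1.52, 5.48 and 3.63. Of all genes, 32.2% were higher and 35.4% lower at 8 h, and 30.4% and 23.4% were higher at 24 h and 48 h. The part of proliferation in the results for the 10 genes was not tested. The same holds for the mitochondrial share and the COL1A1 level given above.

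The other FOXO targets followed the majority of the 10 genes. These targets, like the 10 genes, were chosen with earlier results of these data known, so their likeness is only a description. Of 30 listed, 25 were tested, and at 8 h in MYC-ER cells 20 were lower, 3 were higher (GADD45A, PRDX3 and BNIP3) and 2 did not pass (CDKN1A and MXI1), with a median of -1.31 against -0.10 for all genes, of which 35.4% were lower and 32.2% higher. FBXO32, a ubiquitin ligase subunit of muscle wasting, measured 120.4, 119 and 119 CPM at 0 h and 1.25, 1.35 and 1.67 at 8 h, a fall of 6.39 on the log2 scale (SE 0.09, adjusted p 3.76e-22, edgeR). It was at 11.9 ± 0.461 CPM at 24 h and back at 97.9 ± 1.52 at 48 h, against 2.46 ± 0.229 to 5.08 ± 0.179 in the parental groups. PDK4, the kinase that shuts pyruvate dehydrogenase, fell by 5.86 (SE 0.11, adjusted p 2.32e-20), from 110.4 ± 4.52 to 1.90 ± 0.0743 CPM. GABARAPL1, an autophagy protein, fell by 3.56 (SE 0.06, adjusted p 2.83e-21), and the repressor BCL6 by 3.49 (SE 0.12, adjusted p 1.71e-16).

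At 24 h 20 of the 25 targets were still lower and 4 higher (PRDX3, TNFSF10, MXI1 and BNIP3; 31.2% and 30.4% of all genes), with a median of -0.74, and at 48 h 14 were lower and 5 higher (CDKN1B, PRDX3, BBC3, TNFSF10 and KLF15; 20.7% and 23.4% of all genes), with a median of -0.27. Genes given in brackets to account for small counts were chosen after their values were seen. TNFSF10, the death ligand TRAIL, and BBC3, the apoptosis gene PUMA, had by then passed their 0 h levels, by 1.24 (SE 0.09, adjusted p 2.32e-10) and 0.90 (SE 0.11, adjusted p 5.97e-07, edgeR). Between the lines at 0 h 20 of the 25 were higher in MYC-ER cells and 3 lower (CDKN1A, GADD45A and PRDX3; 31.6% and 32.7% of all genes), with a median of 0.94, led by FBXO32 at 4.65 (SE 0.08, adjusted p 1.43e-21). In parental cells at 8 h 13 were lower and 1 higher (BNIP3; 16.0% and 15.0% of all genes), with a median of -0.26, the largest fall being that of TSC22D3, the glucocorticoid-induced leucine zipper, at -1.38 (SE 0.07, adjusted p 4.33e-10). Over 16 alternatives that count of 13 ran from 7 to 16.

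**Figure D4:**
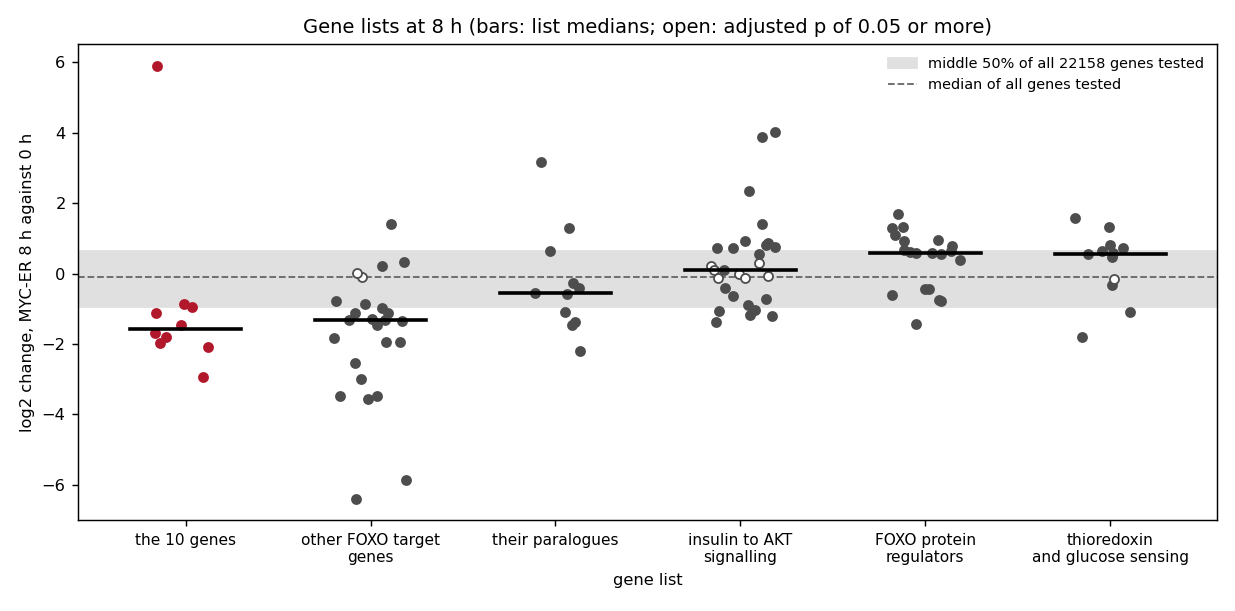
Log2 change in MYC-ER cells at 8 h against 0 h (edgeR) for the 10 genes and 5 gene lists, 1 point per gene tested, with a bar at each list's median, open points for adjusted p of 0.05 or more, and the middle 50% of all genes tested in grey. The medians of the 10 genes (-1.58) and of the other FOXO targets (-1.31) lie below the grey band, and those of the other 4 lists lie inside it.

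Counts for the genes above FOXO in the pathway lay nearer to those of all genes. Of 28 genes between the insulin signal and AKT, 12 were higher and 9 lower at 8 h in MYC-ER cells, where 32.2% and 35.4% of all genes were, with a median of 0.10 that ran from -0.04 to 0.14 over the alternatives. The largest rises among them were in the tribbles pseudokinases, TRIB1 at 4.03 (SE 0.07, adjusted p 4.54e-21) and TRIB3 at 3.88 (SE 0.10, adjusted p 2.17e-18), and in the phosphatase INPP4B at 2.34 (SE 0.11, adjusted p 2.99e-14, edgeR). TRIB3, which can bind AKT, went from 8.16 ± 0.137 CPM at 0 h to 120.2 ± 8.55 at 8 h, beside 113 ± 16.1 and 114 ± 5.15 in parental cells. At 24 h 13 of the 28 were higher and 10 lower (30.4% and 31.2% of all genes), SGK1, a kinase that like AKT phosphorylates FOXO3, being lower by 1.83 on the log2 scale (119.8 ± 2.87 to 33.6 ± 1.33 CPM). At 48 h 10 were higher and 9 lower (23.4% and 20.7% of all genes), and PIK3IP1, an inhibitor of PI3K, was higher by 1.91 (SE 0.09, adjusted p 1.68e-13). Between the lines at 0 h 14 were higher and 11 lower in MYC-ER cells (31.6% and 32.7% of all genes), TRIB3 being lower, at -3.79 (SE 0.10, adjusted p 2.69e-18).

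Of the 20 tested regulators of FOXO proteins, 14 were higher and 6 lower at 8 h in MYC-ER cells, with a median of 0.59. Of all genes 32.2% were higher and 35.4% lower in that comparison, which are also the shares for the 8 h counts of the 3 lists that follow. Those that rose most were 14-3-3 genes, SFN by 1.69 (SE 0.09, adjusted p 3.98e-13), YWHAH by 1.32 (SE 0.05, adjusted p 9.69e-16) and YWHAB by 1.29 (SE 0.05, adjusted p 5.38e-16). The 6 that fell were deacetylases, acetyltransferases and a kinase: SIRT1, SIRT2, EP300, CREBBP, KAT2B and STK3, with KAT2B at -1.43 (SE 0.13, adjusted p 1.5e-09, edgeR). At 24 h 12 were higher and 4 lower (SIRT2, EP300, CREBBP and KAT2B), against 30.4% and 31.2% of all genes. At 48 h 3 were higher (YWHAQ, YWHAZ and MDM2) and 5 lower (YWHAG, STK3, SIRT2, CREBBP and KAT2B), against 23.4% and 20.7%. Between the lines at 0 h 6 were higher and 10 lower, against 31.6% and 32.7%. Among 11 tested relatives of the 10 genes, 3 were higher (IRS1, ARRDC1 and ARRDC3) and 8 lower at 8 h, including CCNG1 at -1.46 (SE 0.06, adjusted p 1.25e-14) and ARRDC4, a paralogue of TXNIP, at -1.38 (SE 0.08, adjusted p 2.23e-12). The 12 genes of thioredoxin and glucose sensing had 8 higher and 3 lower (TXNRD1, MLXIPL and SLC2A3), with PFKFB3, a driver of glycolysis, at 1.57. Of 7 genes of MYC and its partners, 4 were higher (MYC, MAX, MXD1 and MNT) and 2 lower (MXD3 and MXD4).

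Across the 24 libraries the Pearson correlation of log2 CPM was 0.98 between FOXO1 and FOXO3 and 0.93 between FOXO1 and FOXO4. SESN3 correlated with the 3 factors at 0.19 to 0.39 and was most like CCNG2 among the members, at 0.74, while DEPP1 was negative with all 9 others, from -0.83 with FOXO4 to -0.35 with CCNG2. These values are a description over libraries that share their groups, and carry no test. Among 10492 genes searched, the pattern most like that of FOXO1 was JAK1 (0.984), of FOXO3 SVIL (0.984), of FOXO4 SLC9A9 (0.992), of INSR FOSL2 (0.974) and of IRS2 KLHL5 (0.959). For the effectors the nearest were TMSB15B for TXNIP (0.982), TNKS for CCNG2 (0.959), RPS6KA5 for SESN3 (0.966), PDE4DIPP2 for KLHL24 (0.994) and MAP7D3 for DEPP1 (0.96).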

How the data were processed

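RNA was measured by strand-marked, poly(A)-selected, 150-base paired-end sequencing, per the labels' protocols. The values are whole-number counts per Ensembl gene as deposited by the authors. Trimmomatic 0.39, STAR, StringTie 2.1.3b and GRCh38 are named in the submitters' processing notes. The annotation release and the use of strand in counting are not given in the sources used here.

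Library totals were 136860029 to 182438505 counts. The limit that a count of 0 allows, 3 counts, is 0.0219 CPM in the smallest library. Symbols were found for 60295 of 60668 rows. Genes passing edgeR's filter by group (22158) were fitted with edgeR 4.0.16 in R 4.3.3 (TMM scaling, quasi-likelihood F test, 1 mean per group over all 24 libraries, two-sided, Benjamini-Hochberg adjustment within each comparison, 0.05). edgeR's common dispersion corresponds to a coefficient of variation of 0.151 between replicates. The fit was tested on simulated data. CPM are counts per 1000000 of TMM-adjusted totals, computed here.

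The 10 genes and the lists were chosen with earlier results of these data known. All 10 are named whatever their values. Of each list, up to 4 genes a comparison are named by largest called change at 10 CPM or more. Likeness was Pearson's r of log2 CPM. Alternatives changed the scaling, the filter, the tool (DESeq2 1.42.0), the libraries fitted, the replicate block and a GC correction. Promoter windows are RefSeq's, and gene coordinates are GENCODE 29's. Replicate numbers were not shown to pair libraries.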

Additional observations from a re-analysis of the deposited data

Results flagged for a closer look

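The change from 0 h differed between MYC-ER and parental cells for 27 of 30 gene and time combinations. The test was that of the difference itself (edgeR, log2 scale, MYC-ER minus parental). Of all genes tested, 55.2%, 54.5% and 45.0% passed it at 8, 24 and 48 h. All 30 combinations rest on the same 0 h libraries of the lines, so they are not separate results. At 8 h the differences of the transcription factors were -1.59 for FOXO1, -1.75 for FOXO3 and -1.59 for FOXO4. Those of the insulin receptor genes were -1.24 for INSR and -0.95 for IRS2. Among the effectors they were -1.28 for TXNIP, -1.18 for CCNG2, -1.95 for SESN3 and -2.38 for KLHL24, and DEPP1 stood alone above 0 at 4.15.

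At 24 h the factors differed by -2.01 for FOXO1, -2.21 for FOXO3 and -1.38 for FOXO4. INSR was at -1.10 and IRS2 at -1.43, TXNIP at -1.46, CCNG2 at -0.76 and KLHL24 at -1.79. At 48 h the values were -1.17 for FOXO1, -1.62 for FOXO3, -0.53 for FOXO4, -0.92 for INSR and -0.39 for IRS2. The effectors then stood at -0.91 for TXNIP, -0.68 for CCNG2, -1.10 for KLHL24 and -0.87 for DEPP1. The lines also differed in the level of all 10 genes at 0 h, and the part of that starting difference in these values was not tested.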

How the results depend on the processing

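Of 150 results (10 genes in 15 comparisons), 116 were called, and over 2018 alternative fits of those, 1956 kept direction and call, 62 lost the call and 0 changed sign. All 10 genes kept call and direction at 8 h in MYC-ER cells under every alternative run. With only the groups compared, 2, 2 and 4 of the 10 genes were called in parental cells at 8, 24 and 48 h. With all libraries the counts were 5, 6 and 8. Over all genes they were 1452 of 19596, 4923 of 19581 and 3274 of 19680 (6870, 9503 and 8978 of 22158 with all libraries).

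Only values that were not called changed sign, most of them near 0, and for those with no value bearing on it the cause was not tested. The furthest from 0 were parental KLHL24 at 24 h (0.17) and the 24 h differences in response of DEPP1 (0.17) and SESN3 (0.31). Among the alternatives, that KLHL24 value passed on both sides of 0. CCNG2 in MYC-ER cells at 24 h was 0.02 with DESeq2 size factors, 0.11 with library size alone, 0.02 with DESeq2 and 0.03 with only the groups compared, and at 48 h 0.14 with library size alone, 0.02 with upper quartile scaling, 9.7e-06 with the GC trend removed and 0.0004 with the block added. CCNG2 from 24 h to 48 h was 0.03 with library size alone, 0.06 with upper quartile scaling, 0.0049 with at least 10 counts and 0.05 with the GC trend removed, block or not. With upper quartile scaling parental IRS2 at 8 h was -0.03, and INSR and TXNIP at 24 h were -0.05 each. With the GC trend removed parental TXNIP at 24 h was -0.13 (adjusted p 0.0193, edgeR) and KLHL24 -0.22 (adjusted p 0.0119, and -0.21 with the block). Both of these passed below 0. Parental FOXO4 at 48 h was 0.17 with the GC trend removed (adjusted p 0.0897) and 0.03 with library size alone. From 8 h to 24 h library size alone gave FOXO1 0.06, FOXO3 0.10 and IRS2 0.13, and IRS2 was 0.03 with upper quartile scaling and 0.0032 with the GC trend removed. Between the lines IRS2 at 8 h was 0.01 with DESeq2 or its size factors, and SESN3 at 48 h was 0.08 with library size or upper quartile scaling, 0.06 with the GC trend removed and 0.05 with the block added. The DEPP1 difference in response at 24 h was -0.01 with the GC trend removed.

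Leaving out 1 library at a time, CCNG2 in MYC-ER cells ran from -0.02 to 0.01 at 24 h and IRS2 from -0.02 to 0.11 at 48 h. Parental 8 h ranges were -0.19 to 0.08 for FOXO1, -0.19 to 0.07 for FOXO3, -0.11 to 0.12 for IRS2 and -0.18 to 0.28 for SESN3. At 24 h INSR ran from -0.06 to 0.13 and TXNIP from -0.0043 to 0.07, and at 48 h FOXO4 from -0.06 to 0.02. INSR from 8 h to 24 h ran from -0.0031 to 0.09, IRS2 between the lines at 8 h from -0.09 to 0.01, and the 24 h differences in response from -0.01 to 0.46 for SESN3 and -0.02 to 0.31 for DEPP1.

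Library size alone shifted the median of all genes by 0.162 at 48 h in MYC-ER cells and by 0.206 from 8 h to 24 h, and the share of calls that were higher was 73.8% (53.0% with TMM) and 67.8% (51.2%). Between the lines it was 60.7% at 24 h and 59.8% at 48 h (47.6% and 48.2% with TMM), and 58.4% and 59.7% with upper quartile scaling. For the 48 h difference in response it was 63.5% (52.5%).

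Deviations of libraries with the same replicate number correlated at -0.078 to 0.094 (median 0.001, 84 pairs). Those with different numbers correlated at -0.058 to 0.085 (median -0.002, 168 pairs). Of 24 libraries, 12 correlated best with one of their own number, a count not tested against chance. With the replicate block, 7 genes in place of 6 were called between the lines at 24 h (FOXO1 -0.21) and 10 in place of 9 for the 48 h difference in response (SESN3 -0.52), and no other count changed. Replicates of a group differed by more than counting error, so the spread between replicates, not the depth, sets the precision. The 8 groups shared 1 estimate of that spread for each gene, so it was not that of the groups compared alone.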
